A study of Mus musculus with 2 samples.

Results

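Immediate early genes are transcribed within minutes of a growth factor signal or a mechanical or chemical stress, without new protein synthesis. The 10 described here are Fos, Fosb, Jun, Junb, Egr1, Ier2, Ier3, Nr4a1, Atf3 and Zfp36, chosen by symbol as genes known to respond to tissue handling and to growth factors, out of 23284 genes listed in each library; all 10 were listed. The study compared the small intestinal epithelium of wild-type mice (genotype miR-215+/+) with that of mice lacking the microRNA miR-215 (genotype miR-215-/-), by sequencing polyadenylated RNA. Each genotype is represented by 1 library, so replicates cannot back any difference described here and no p-value is given. Strain, sex, age, the number of animals behind a library, the deleted part of the locus and the way the cells were isolated were not given in the sources used here. A library of undisturbed tissue is not part of the comparison, so how much of a level arose before and how much during cell isolation cannot be told apart.

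In resting cells most of these genes are nearly silent, and serum response factor with its ETS partners, CREB and other factors already bound at their promoters switch them on when MAP kinases are activated. FOS proteins pair with JUN proteins to form AP-1, a dimer that binds DNA and drives a second wave of genes, while the mRNAs are short-lived because AU-rich elements in their 3' UTRs recruit decay factors. In the intestine these genes respond to EGF family ligands, microbial products and injury, and enzymatic or mechanical release of cells from tissue also switches them on. The mature strand of miR-215 and that of miR-192 share a seed (bases 2 to 8, in capitals) and are shown because the seed was searched for in the members' 3' UTRs:

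mmu-miR-215-5p: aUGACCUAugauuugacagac

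mmu-miR-192-5p: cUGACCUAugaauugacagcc

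The sequences are from RefSeq (GRCm38.p6), at chr1:185313610-185313630 and chr19:6264857-6264877, both on the plus strand. The matching heptamer, TAGGTCA, was found in the annotated 3' UTR of 1 of the 10 members, Egr1, with 1 match. Among 10985 genes kept for comparison with an annotated 3' UTR, 6.45% had at least 1 match. The other members had none, so a direct seed match of this length was present for Egr1 alone. A match is a description of the letters and not a shown target site. The gene of miR-215 itself, Mir215, was at 137 FPKM in wild type and 0 in the knockout library; it is so short that a few fragments give a high FPKM, and Mir192 was at 0 and 387 FPKM.

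The values are FPKM, which divide the fragments of a gene by its transcript length and by the depth of the library, so levels of different genes can be compared per length. A gene was kept for comparison if either library had 1 FPKM or more, as 11504 genes did, all 10 members among them; Nr4a1 passed only through the wild-type library. Log2 ratios are log2(FPKM + 1) in the knockout minus the same in the wild-type library, a scale that understates the difference of low genes, and folds are plain FPKM ratios. Each fold carries a 95% Clopper-Pearson interval made from the fragments behind the 2 values, which covers counting error only. From the steps between low values, 1 fragment over an effective length of 1 kb equalled 0.103 FPKM in wild type and 0.0992 in the knockout library. For the low members the deposited ratios also returned whole fragments, within a relative error of 1e-05: 28 and 11 for Nr4a1, 53 and 146 for Fosb, 45 and 27 for Ier3, and 110 and 173 for Egr1, where the first number is the wild-type library. For Ier3 3 pairs in the same proportion fitted, so its number is approximate.

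The levels of the 10 genes spanned 119.9-fold in wild type and 384-fold in the knockout library. From high to low in the wild-type library the order was Zfp36, Junb, Fos, Jun, Ier2, Atf3, Ier3, Egr1, Fosb and Nr4a1. Zfp36, Fos and Junb were among the more abundant mRNAs, at ranks 809, 1193 and 1123 of the 23284 genes in wild type and 590, 672 and 1079 in the knockout library. Of the 45 pairs that the 10 genes form, 41 had the same order in both libraries. The 4 that changed order were Fos with Junb, Fosb with Ier3, Egr1 with Ier3, and Atf3 with Ier2. In each of these the gene named first passed the other in the knockout library. The summed FPKM of the 10 genes was 481 in wild type and 582 in the knockout library, a ratio of 1.21.

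**Figure D1:**
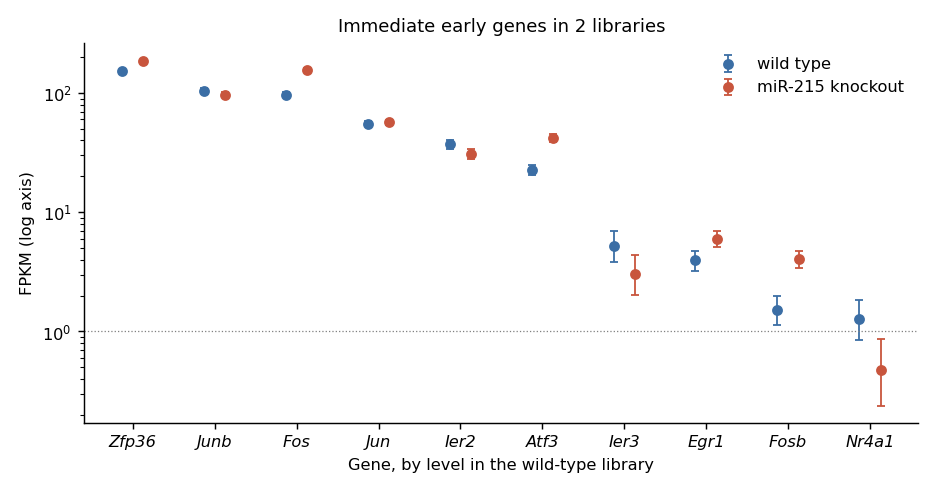
FPKM (log axis) of the 10 immediate early genes in the wild-type library (blue) and the miR-215 knockout library (red), ordered by the wild-type level; bars are 95% Poisson counting intervals and the dotted line marks 1 FPKM. Levels run from 152 FPKM for Zfp36 to 1.27 for Nr4a1 in the wild-type library. Fosb, Atf3, Fos, Egr1 and Zfp36 were higher in the knockout library, by 2.65-, 1.85-, 1.63-, 1.51- and 1.21-fold.

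Read as a group, the 10 genes differed in both directions as deposited. Fosb, Atf3, Fos, Egr1 and Zfp36 were higher in the knockout library with counting intervals above 1. Nr4a1, Ier3, Ier2 and Junb were lower with intervals below 1, and the interval of Jun included 1. Intervals above 1 were found for 5 of 10 members and 19.6% of 11387 genes with a known length, and intervals below 1 for 4 of 10 and 30.3%. Abundant genes have narrow intervals, so these shares follow level as well as size. The sides of the intervals depended on the scaling too. With equal sums of FPKM or equal upper quartiles, those of Ier3, Ier2 and Junb included 1 and that of Jun lay above 1. Only Nr4a1 then kept an interval below 1. By the rule of size, 2-fold on the log2(FPKM + 1) scale, 0 of 10 were higher, where 1.34% of the 11504 genes were, and 0 of 10 were lower, where 2.04% were. At 1.5-fold on the same scale 3 members were higher (Fosb, Atf3 and Fos), against 4.83% of all genes kept, and 2 were lower (Ier3 and Nr4a1), against 7.26%. That count depended on the scaling: with equal sums of FPKM or equal upper quartiles 4 members were 1.5-fold higher, Egr1 being added, and 0 were 1.5-fold lower. The shares of all genes were 7.69% higher and 4.95% lower with equal sums. The median log2 ratio of the 10 was 0.16, with a range from -0.63 to 0.999, and that of all genes kept was -0.05. The 10 genes were described because of what is known of them, and 6 of them had a log2 ratio above 0, as did 43.98% of all genes kept.

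The FOS genes were both higher in the knockout library. Fos, which encodes an AP-1 subunit that does not pair with itself and binds DNA as a partner of JUN proteins (chromosome 12, 85473890 to 85477273 on the plus strand of mm10, 4 exons), was at 96.5 FPKM in wild type and 157 in the knockout library. The value in the knockout library was thus the higher one, by 1.63-fold (interval 1.54 to 1.73, about 1779 and 3012 fragments), and 3.15% of all genes kept had as high a log2 ratio. Fosb, a close relative of Fos (chromosome 7, 19302696 to 19310051 on the minus strand, 4 exons), was at 1.52 FPKM in wild type and 4.04 in the knockout library. Its fold of 2.65 (1.93 to 3.71) was the highest of the 10, although the log2 ratio of 0.999 with the added 1 stayed just under the rule of size; with 0.1 added in place of 1, or under each of 3 other scalings, it passed. Fosb was a minor species in both libraries, 63.4-fold below Fos in wild type and 39.0-fold below it in the knockout library.

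The promoter windows of these 2 genes, 250 bases before to 50 after the RefSeq start site, are shown because both genes were higher and their control is well studied. Capitals mark TGACG, the core of the cAMP response element (CRE), on either strand, the TATAAA box, and the EGR motif GCGNGGGCG:

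Fos: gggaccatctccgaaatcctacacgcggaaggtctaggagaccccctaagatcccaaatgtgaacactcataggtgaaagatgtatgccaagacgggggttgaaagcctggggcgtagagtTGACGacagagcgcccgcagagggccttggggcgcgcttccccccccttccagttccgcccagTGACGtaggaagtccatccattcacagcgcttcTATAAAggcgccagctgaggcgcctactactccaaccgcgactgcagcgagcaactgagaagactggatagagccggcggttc

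Fosb: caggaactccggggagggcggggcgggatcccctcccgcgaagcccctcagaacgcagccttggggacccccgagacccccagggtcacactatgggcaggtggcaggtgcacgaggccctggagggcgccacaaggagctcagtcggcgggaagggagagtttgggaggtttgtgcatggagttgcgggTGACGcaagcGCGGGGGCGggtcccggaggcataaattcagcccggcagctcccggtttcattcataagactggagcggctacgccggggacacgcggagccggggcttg

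They lie at chr12:85473640-85473939 (plus strand) and chr7:19309996-19310295 (minus strand) of GRCm38.p6. The Fos window had a CRE core 66 and another 129 bases before the start site and a TATA box 33 bases before it. The Fosb window had a CRE core 60 bases before the start site and an EGR motif 50 bases before it. Promoter windows were matched for 8 of the 10 members. The CRE core was in 5 of these 8 (Fos, Fosb, Junb, Atf3 and Nr4a1), in 20.8% of 32817 windows of the same length, and in 30.8% of the 10538 windows of genes kept. Of the 5, Fos, Fosb and Atf3 had folds above 1 and Junb and Nr4a1 folds below 1 in the deposited values. The full CRE, TGACGTCA, and the AP-1 motif TGANTCA were in 0 of the 8 and in 1.79% and 7.81% of all windows. These matches are descriptions of the letters, which short and base-rich windows reach at different rates; the median GC content was 64.2% in the members' windows and 52.7% in all.

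The JUN genes differed little. Jun, the classic AP-1 partner of FOS (chromosome 4, 95049034 to 95052222 on the minus strand, 1 exon), was at 55.4 FPKM in wild type and 56.9 in the knockout library, a fold of 1.03 with an interval of 0.958 to 1.10. Junb, a JUN protein that can oppose the activity of Jun (chromosome 8, 84974484 to 84978718 on the minus strand, 1 exon), was at 105 FPKM in wild type and 96.9 in the knockout library, a fold of 0.923 (0.861 to 0.991). The sign of Junb depended on the scaling: its log2 ratio was -0.11 as deposited and 0.02 with the libraries set to equal sums. The annotated span of Junb, 4235 bases, overlaps the gene Prdx2 on the other strand by 351 bases, at the end away from the Junb start site. The 1-exon mRNA of Junb is 1809 nt, which from that start site does not reach Prdx2. Prdx2 was itself at 234 and 187 FPKM, and use of strand in counting was not stated.

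The ratio of Fos to Junb within a library does not depend on the scaling between libraries. It was 0.920 in wild type and 1.63 in the knockout library, so Junb was the more abundant of the pair in the first and Fos in the second. The ratio of Fos to Jun was 1.74 and 2.77. Within the FOS family of 4 genes, Fos made up 62.3% of the family total in wild type and 70.3% in the knockout library. Fosl2, which encodes the more stable FRA-2, made up 36.7% and 27.9%. Fosl1, encoding FRA-1, had a value of 0 in wild type and rested on 1 fragment in the knockout library. The FOS family summed to 155 and 224 FPKM, while the JUN family (Jun, Junb and Jund) summed to 250 and 225. Jund, the constitutive member of the JUN family, was at 90.2 FPKM in wild type and 71.5 in the knockout library, 1.26-fold lower in the knockout library (1.16 to 1.37).

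**Figure D2:**
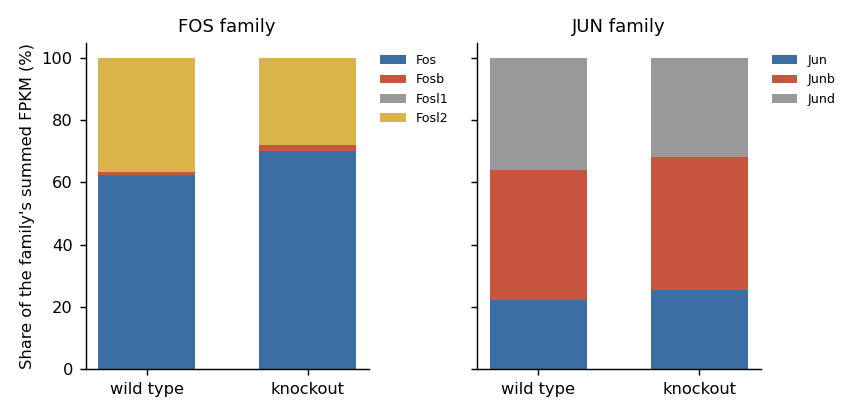
Share (%) of the summed FPKM that each gene makes up within the FOS family (left) and the JUN family (right), in the wild-type and the knockout library. Fos takes 62.3% of its family in wild type and 70.3% in the knockout library, and Jund takes 36.0% and 31.7% of the JUN family.

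Atf3 was the other bZIP gene of the 10 and was higher in the knockout library. It encodes a stress-induced protein of the ATF/CREB family that can pair with JUN proteins and often represses its targets (chromosome 1, 191170296 to 191218039 on the minus strand, 4 exons in its RefSeq-linked transcript). Atf3 was at 22.7 FPKM in wild type and 41.9 in the knockout library, a fold of 1.85 (1.63 to 2.09), and 2.0% of all genes kept had as high a log2 ratio. It moved from rank 3789 to rank 2246 of the listed genes and passed Ier2 in level. Among 14 further genes for AP-1 and ATF partners, 12 were kept, 9 had log2 ratios above 0, and 0 were 2-fold apart in either direction, with a median of 0.20. The small bZIP gene Jdp2, a repressor of AP-1, was at 1.59 and 3.73 FPKM, a fold of 2.34 (1.42 to 4.08). Batf2, an interferon-inducible relative, was at 11.1 and 20.7 FPKM. Maff, a small MAF gene, was at 9.47 and 13.5 FPKM, and the most abundant of the list, the integrated stress response factor Atf4, was at 148 and 132.

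The transcription factor genes Egr1 and Nr4a1 were low in both libraries and differed in opposite directions. Egr1, a zinc finger factor induced through serum response factor (chromosome 18, 34859823 to 34864984 on the plus strand, 3 exons), was at 3.94 FPKM in wild type and 5.97 in the knockout library, a fold of 1.51 (1.18 to 1.95). Nr4a1, the orphan nuclear receptor NUR77 (chromosome 15, 101254269 to 101274795 on the plus strand, 7 exons), was at 1.27 FPKM in wild type and 0.479 in the knockout library, 2.64-fold lower (1.28 to 5.88). Its value rested on 28 and 11 fragments, the fewest of the 10. The ratio of Egr1 to Nr4a1 was 3.11 in wild type and 12.5 in the knockout library. That of Fosb to Nr4a1 was 1.20 and 8.44.

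The relatives of these 2 genes were too low for the set of genes kept, apart from Nr4a2. Egr2 was at 0.223 and 0.609 FPKM, about 6 and 17 fragments, and Egr3 at 0.934 and 0.245, about 23 and 6 fragments, so the EGR genes did not share a direction. Egr4 was listed at 0 in both. Nr4a2 was at 1.02 and 1.23 FPKM (fold 1.20, interval 0.738 to 1.95), and Nr4a3 was at 0.122 and 0.177, about 7 and 10 fragments.

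The promoter window of Nr4a1 is shown because this gene had the lowest fold of the 10, with the CRE core and the EGR motif in capitals:

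Nr4a1: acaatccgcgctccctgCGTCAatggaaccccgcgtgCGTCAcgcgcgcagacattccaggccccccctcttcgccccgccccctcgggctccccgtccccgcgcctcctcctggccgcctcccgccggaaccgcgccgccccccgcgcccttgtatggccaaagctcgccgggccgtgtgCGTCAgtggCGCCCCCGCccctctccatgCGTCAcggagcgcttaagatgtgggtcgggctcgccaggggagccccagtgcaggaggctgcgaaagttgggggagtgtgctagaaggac

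It lies at chr15:101266596-101266895 on the plus strand. The window had 4 CRE cores, at 233, 213, 69 and 40 bases before the start site, all on the opposite strand, and an EGR motif 60 bases before it. The EGR motif was in 3 of the 8 windows (Fosb, Nr4a1 and Zfp36), in 5.56% of all windows and in 10.2% of those of genes kept. Fosb and Nr4a1, which both hold it, were at the opposite ends of the folds.

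Both IER genes were lower in the knockout library. Ier2, which encodes a small nuclear protein (chromosome 8, 84661331 to 84662852 on the minus strand, 1 exon), was at 37.2 FPKM in wild type and 31.1 in the knockout library, 1.20-fold lower (1.04 to 1.37). Ier3, which encodes IEX-1, a regulator of cell survival (chromosome 17, 35821684 to 35822923 on the plus strand, 2 exons), was at 5.23 FPKM in wild type and 3.02 in the knockout library, 1.73-fold lower (1.07 to 2.89). With equal sums of FPKM both intervals included 1, at 0.803 to 1.05 for Ier2 and 0.380 to 1.03 for Ier3 as knockout over wild type. Their relative Ier5 was at 42.3 and 32.9 FPKM, 1.29-fold lower (1.18 to 1.40), and Ier5l rested on about 7 fragments in each library.

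Zfp36 was the most abundant of the 10 in both libraries. It encodes tristetraprolin, which binds AU-rich elements and brings the decay machinery to short-lived mRNAs, its own included (chromosome 7, 28376784 to 28380253 on the minus strand, 2 exons). It was at 152 FPKM in wild type and 184 in the knockout library, a fold of 1.21 (1.16 to 1.27). An antisense gene without a value under its symbol, Gm44710, overlaps it. Its promoter window, at chr7:28379179-28379478 on the minus strand, was the only one of the 8 with a CArG box, the site of serum response factor, which 1.63% of all windows had. Sites more than 250 bases before a start site were not searched, and Egr1 and Ier2 had no matched window. The other members are thus not shown to lack such a site. The CArG box, 58 bases before the start site, and the EGR motif, 105 bases before it, are in capitals:

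Zfp36: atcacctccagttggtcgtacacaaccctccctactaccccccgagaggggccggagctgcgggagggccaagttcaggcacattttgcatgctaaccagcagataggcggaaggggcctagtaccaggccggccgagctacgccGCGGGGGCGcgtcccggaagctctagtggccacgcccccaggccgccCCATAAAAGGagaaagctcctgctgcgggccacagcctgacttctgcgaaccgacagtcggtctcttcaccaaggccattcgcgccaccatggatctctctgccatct

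The AU-rich heptamer TATTTAT was in the 3' UTRs of 6 of the 10 members (Fos, Fosb, Jun, Atf3, Ier3 and Zfp36) and in 27.8% of the 10985 genes. The members had 1.23 matches per kb of 3' UTR and all genes 0.283, with a median 3' UTR of 794.5 nt in the members and 1004 nt in all. Ier3 had 4 matches, Zfp36 had 3 and Fos had 2. A stretch around matches in each is shown, with the heptamer in capitals, since these letters are what the protein made from Zfp36 is known to read:

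Ier3: aaTATTTATgTATTTATgtatatcctc

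Zfp36: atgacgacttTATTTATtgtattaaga

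Fos: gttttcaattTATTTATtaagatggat

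The matches shown start 182 and 190 bases into the 3' UTR of Ier3, 590 bases into that of Zfp36 and 656 bases into that of Fos, counted from 1 after the stop codon. Of the 6 members with the heptamer, Fos, Fosb, Atf3 and Zfp36 were higher in the knockout library as deposited, Ier3 was lower and the interval of Jun included 1. Members without it were Egr1, which was higher, and Ier2, Junb and Nr4a1, which were lower as deposited. In 6 of the 10 members the gene spanned under 5 kb, as in 11.1% of the genes compared, while Nr4a1 spanned 20527 bases and Atf3 47744. Their median span on the genome was 3852.5 bases and their median number of exons 2.5, against 23282 bases and 9 exons over 10095 protein-coding genes kept.

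Reported target mRNAs of tristetraprolin were compared as a list of 13 genes, which also held its family members Zfp36l1 and Zfp36l2. Of the 13, 9 were kept, 2 had log2 ratios above 0, 0 were 2-fold higher and 1 was 2-fold lower, with a median of -0.13. Among the 9, 1 (Cxcl2) was kept only through the knockout library and 2 only through the wild-type library. The chemokine gene Ccl20 was the lower one, at 5.88 and 2.34 FPKM, 2.51-fold lower (1.27 to 4.95); with equal sums or a pseudocount of 5 no gene of the list was 2-fold lower. Tnf was at 1.45 and 0.631 FPKM and Cxcl2 at 0.586 and 1.47, both with intervals that included 1. The family member Zfp36l1 was at 32.0 and 21.9 FPKM, 1.46-fold lower (1.32 to 1.62), and Zfp36l2, the most abundant of the list, at 42.6 and 41.2. Il6 was listed at 0 in both libraries.

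**Figure D3:**
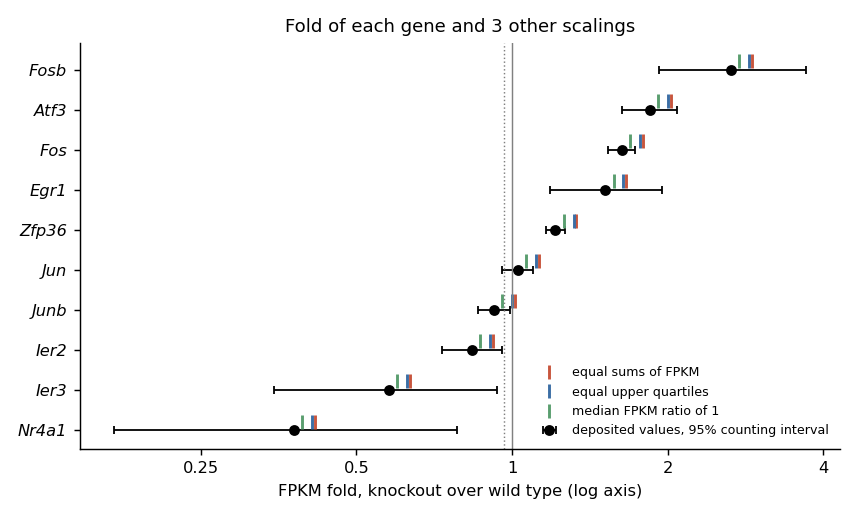
FPKM fold of each gene, knockout over wild type (log axis), with its 95% counting interval (black), and the fold under 3 other scalings between the libraries (coloured ticks); the solid line is 1 and the dotted line the median fold of all genes kept. Fosb, at 2.65, and Nr4a1, at 0.378, lie at the ends, and Junb crosses 1 between scalings.

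A wider list of 49 immediate early and early response genes was then compared. Of these 42 were kept, 24 had log2 ratios above 0 and 18 below, 1 was 2-fold higher and 0 were 2-fold lower, with a median of 0.02. The gene past 2-fold was Plk3, a stress-responsive polo-like kinase, at 3.90 and 10.9 FPKM (fold 2.80, 2.15 to 3.66). Klf2 was at 0.765 and 1.97 FPKM. Cebpb, a bZIP factor of acute phase responses, was at 14.1 and 6.56 FPKM, 2.15-fold lower (1.64 to 2.80), and Gadd45a, a growth arrest gene, at 53.2 and 31.1. The most abundant of the list, Irf1, was at 166 and 158 FPKM, with a fold of 0.954 (0.906 to 1.003). The wider list thus had genes on both sides of 0, as the 10 members did.

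The layers above and below the members were read next. Of 15 genes for SRF and CREB activators, 14 were kept, 8 were above 0 and 0 were 2-fold apart (median 0.11). Srf was at 10.2 and 11.5 FPKM (fold 1.12, 0.943 to 1.34), the ETS partner Elk4 at 5.51 and 7.25, and Crem, a CREB relative, at 4.08 and 2.48. The kinase gene Rps6ka5, encoding MSK1, which phosphorylates CREB, was at 5.11 and 2.82 FPKM, 1.81-fold lower (1.46 to 2.25), and Rps6ka3 was at 13.7 and 10.6. The most abundant kinase of the list, Rps6ka1, was at 126 and 124 FPKM. MAP kinase cascade genes were listed for 18 of 19 symbols, and all 18 were kept, 4 above 0 and 14 below, with 0 2-fold apart and a median of -0.16. With equal sums of FPKM 7 were above 0 and the median was -0.03. The median of all genes kept moved too, from -0.05 to 0.07, so the list median lay below it under both scalings. Mapk3, encoding ERK1, was the most abundant, at 308 and 234 FPKM, 1.32-fold lower (1.26 to 1.38). Map2k6 was at 4.14 and 2.45 FPKM, Mapk8, encoding JNK1, at 11.7 and 8.78, and Map2k7 at 9.02 and 11.1. These are mRNA levels and say nothing of kinase activity.

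Of 16 genes that brake MAP kinases, 15 were kept, 7 above 0 and 8 below, with 0 2-fold apart and a median of 0.00. Dusp1, a nuclear phosphatase of p38 and JNK that is itself an immediate early gene, was at 5.74 and 11.4 FPKM, a fold of 1.99 (1.55 to 2.55). Dusp5, a phosphatase of nuclear ERK, was at 13.9 and 8.66 FPKM, 1.601-fold lower (1.33 to 1.92), and Dusp6, the most abundant, at 51.0 and 43.3. Errfi1, an inhibitor of the EGF receptor, was at 35.1 and 52.8 FPKM, and Dusp7 at 0.478 and 1.12. Of 12 genes for EGF family ligands and receptors, 9 were kept, 6 above 0 and 0 2-fold apart (median 0.10). The ligand gene Hbegf, also an early response gene, was at 16.4 and 28.4 FPKM, a fold of 1.73 (1.52 to 1.98). Areg was at 4.04 and 5.38 FPKM, Egfr at 8.37 and 9.49, Met at 9.63 and 12.2, and Erbb3, the most abundant, at 219 and 202.

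Heat shock genes that often appear with immediate early genes in dissociated cells were compared as a list. Of 14 genes 13 were kept, 10 above 0 and 3 below, 1 2-fold higher and 0 2-fold lower, with a median log2 ratio of 0.59 against -0.05 over all genes kept. Hsph1, a co-chaperone of HSP70, was at 6.84 and 19.03 FPKM, a fold of 2.78 (2.38 to 3.26). Hsp90aa1, the inducible HSP90, was at 51.9 and 91.7 FPKM, the ER chaperone gene Hspa5 at 192 and 337, the mitochondrial chaperonin gene Hspd1 at 66.3 and 113, and Hspa8, the most abundant, at 626 and 989. The inducible HSP70 genes, near-identical copies between which fragments may be split, were low: Hspa1b was at 1.02 and 2.39 FPKM and Hspa1a at 0.119 and 0.534, about 3 and 15 fragments. Dnajb1, another heat-inducible gene, was at 35.8 and 33.7 FPKM, with an interval of 0.859 to 1.03 that included 1.

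Glucocorticoid response genes stood further apart than any other list of signalling or stress genes read here, by their median. Of 16 genes 15 were kept, 11 above 0, 5 2-fold higher and 2 2-fold lower, with a median of 0.73. Of all genes kept 1.34% were 2-fold higher and 2.04% lower. The number of the list 2-fold higher was 7 with equal sums of FPKM and 4 with a pseudocount of 5. Fkbp5, a steroid receptor co-chaperone, was at 3.11 and 28.8 FPKM (fold 9.26, 7.51 to 11.4), the clock gene Per1, also an early response gene, at 2.61 and 13.2, the mTORC1 inhibitor gene Ddit4 at 13.6 and 53.2, and Sgk1, the most abundant of those higher, at 217 and 503. The lower ones were the metallothionein genes, with Mt2 at 172 and 39.8 FPKM. Dusp1 and Zfp36 are known to be induced by glucocorticoids as well as by MAP kinases, and what part these genes' signals have in the members' values was not tested.

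**Figure D4:**
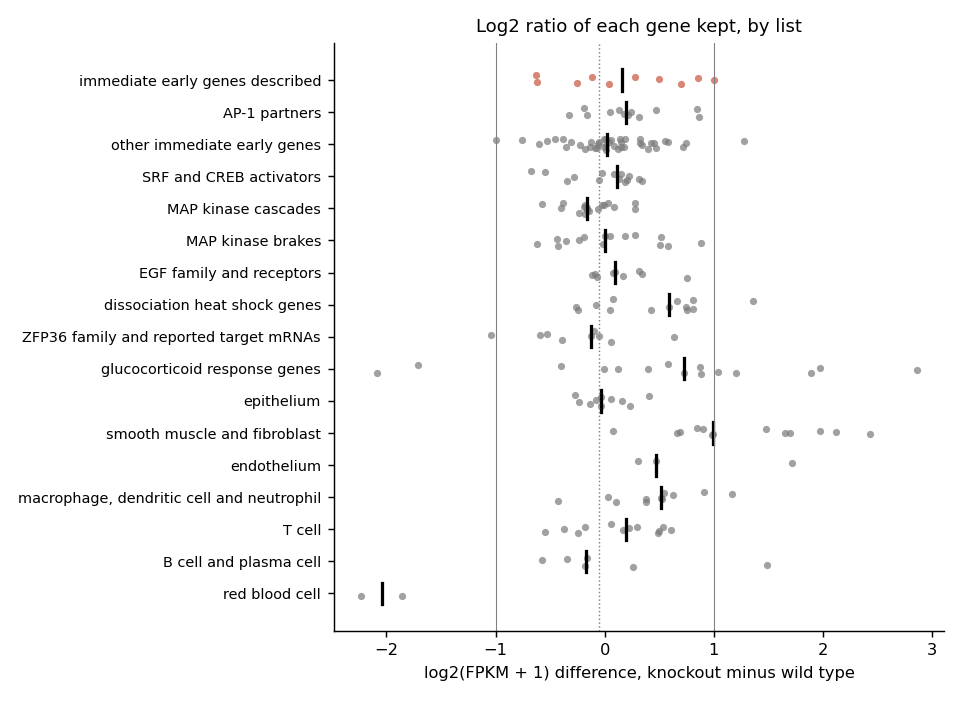
Log2(FPKM + 1) difference, knockout minus wild type, of every gene kept, by list; points are genes, black bars list medians, the dotted line the median of all genes kept and thin lines mark 2-fold. The 10 immediate early genes (red) spread on both sides of 0 with a median of 0.16. The highest medians are those of the smooth muscle and fibroblast list, at 0.99, the glucocorticoid response list, at 0.73, and the heat shock list, at 0.59.

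The preparations held RNA of cells other than epithelium, and immediate early genes are expressed in these as well. The defining epithelial markers were high in both libraries, with Epcam at 1539 and 1400 FPKM and Vil1 at 1600.1 and 1566. The 10 epithelial markers summed to 28510 and 26368 FPKM, with 4 above 0 and a median log2 ratio of -0.03, which became 7 above 0 and 0.10 with equal sums. Of the 15 smooth muscle and fibroblast markers 13 were kept, all 13 above 0 and 6 of them 2-fold higher, with sums of 20.6 and 65.4 FPKM. Of the 13, 6 (Actg2, Myh11, Des, Cnn1, Col3a1 and Col6a1) were kept only through the knockout library, so the count among those kept is no support by itself. The number 2-fold higher was 11 with a pseudocount of 0.1, 2 with a pseudocount of 5 and 9 with equal sums, and the median log2 ratio of 0.99 was 2.09 with a pseudocount of 0.1. Of the 14 macrophage, dendritic cell and neutrophil markers 11 were kept, 10 above 0, with sums of 78.1 and 100.3 FPKM; the neutrophil markers S100a8 and S100a9 were at 0 in both. The 8 endothelial markers summed to 2.24 and 7.86 FPKM, with Kdr and Emcn at 0 in the wild-type library. Of the 12 T cell markers listed 8 were above 0, with sums of 399 and 421 FPKM, of which Gzma was 250 and 261. The 4 below 0 were Cd160, Cd3d (7.68 and 4.93 FPKM), Cd3e (10.7 and 9.33) and Cd3g (38.9 and 29.8). Of the 6 B cell and plasma cell markers listed 2 were above 0 (Igj and Cd22) and 4 below, with sums of 61.3 and 91.8 FPKM. Igj was at 20.3 and 58.6 FPKM, while Cd79b was at 12.2 and 7.88 and Ms4a1 at 6.05 and 4.54. None of the 8 enteric neuron and glia markers was kept (1.33 and 1.13 FPKM in sum, with Sox10 and Gfap at 0 in both libraries), and the 5 red blood cell genes listed summed to 36.5 and 6.69 FPKM. The part of these cells in the members' differences was not tested, and more cells of a type cannot be told apart from more RNA per cell.

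Another scaling between the libraries multiplies all 10 folds alike, so their order stays and their distance from 1 moves. As deposited, the median log2 ratio of all genes kept was -0.05, and with equal sums of FPKM it was 0.07. The split of all genes at 2-fold, 154 higher to 235 lower as deposited, was then 208 to 185. With equal sums Fos was 1.79-fold higher (1.69 to 1.90), Fosb 2.91-fold (2.11 to 4.07), Atf3 2.03-fold (1.79 to 2.29) and Egr1 1.66-fold (1.30 to 2.14). Under the same scaling Nr4a1 was 2.41-fold lower, with an interval of 0.187 to 0.861 as knockout over wild type. The interval of Jun was then above 1, at 1.05 to 1.21.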

How the data were processed

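Polyadenylated RNA of small intestinal epithelial cells was sequenced from 1 wild-type and 1 miR-215 knockout sample. The authors deposited 1 FPKM value per gene and library; no header names the unit, which was inferred from the submitters' processing notes (TopHat2 2.0.13, Bowtie2 2.2.3, SAMtools 0.1.19, Cuffnorm 2.2.1, build mm10) and the values. The role of each tool, settings, annotation, strand use and scaling were not given in the sources used here. Values were FPKM, to which a count model was not applied. Low genes (under 0.1 FPKM in each library) numbered 602, and 246 of them had the knockout to wild-type ratio 0.963 within 0.05%, the relative worth of 1 fragment. Fragments were estimated from transcript length less 210 nt. That offset and the worth of 1 fragment were set together so that the largest number of low values, 357 of 763, came out within 2% of 1 to 3 whole fragments. Lengths and coordinates are from GENCODE M21 (GRCm38, counted from 1), with the median over RefSeq-linked transcripts; 22824 of 23284 symbols matched, and promoters and microRNAs are from RefSeq (GRCm38.p6). The interval code was tested on simulated data. The members, the 17 context lists and the settings were chosen with earlier results of these data known. Named genes were all members and, per signalling list, the 4 kept genes farthest from 0 and the most abundant one; relatives of members and the Srf, Hspa1a, Hspa1b, Dnajb1 and Il6 values were added after they were seen. Of the cell marker lists counts, sums and some single markers are given, and the single T cell, B cell and plasma cell markers were added after they were seen. Alternatives were 2 pseudocounts, 2 filters, 3 scalings and 2 transcript lengths, with whole fragments added after seeing the data. Python 3.11.15, pandas 2.3.3, SciPy 1.17.1 and matplotlib 3.10.9 were used.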

Additional observations from a re-analysis of the deposited data

How the results depend on the processing

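The number of members past 2-fold, 0 in the deposited values, was 2 with a pseudocount of 0.1 (Fosb higher, Nr4a1 lower), and 1 (Fosb) with equal sums of FPKM, equal upper quartiles or a median FPKM ratio of 1. It was 0 with a pseudocount of 5, without a filter and with a minimum of 5 FPKM, which left out Fosb and Nr4a1. Under all 7 alternatives the median log2 ratio of the members was 0.15 to 0.29, and it lay 0.157 to 0.240 above the median of all genes. Its shifts stayed within the median half-width of the counting intervals of single members, which is not the counting error of a median. Of 68 log2 ratios of single members, 66 kept their sign; the others were Junb with equal sums (0.02) and equal upper quartiles (0.00). In size 59 stayed within counting error. Those that did not were Fosb, at 0.999 and 0.47 with a pseudocount of 5, and Fos, Jun, Junb and Zfp36 with equal sums and with equal upper quartiles. Nr4a1, at -0.62, was -1.24 with a pseudocount of 0.1 and -0.19 with 5, which its wide interval covered. At 1.5-fold, 3 members higher and 2 lower became 4 and 0 with equal sums or equal upper quartiles, 2 and 0 with a pseudocount of 5, 4 and 2 with 0.1, and 2 and 1 with a minimum of 5 FPKM. With the shortest annotated transcript the interval of Junb (0.779 to 1.09) and that of Nr4a1 (0.00816 to 9.25) included 1; whole fragments changed no side. Of 104 context list medians 97 kept their sign, and the epithelium and MAP kinase brake lists, near 0, changed it. Of the same medians 98 moved by no more than the median half-width of the counting intervals of their single genes. The split of all genes at 2-fold, 154 higher to 235 lower, became 208 to 185 with equal sums and 339 to 361 with a pseudocount of 0.1. No paired analysis was possible because each genotype has 1 library, and no library could be left out for the same reason. Depth limits Nr4a1 and Ier3 most.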
